A study of Mus musculus with 5 samples.

Results

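The genes described here were 36 cell cycle genes, of 55471 genes in all, followed in colon of mice with colitis that received the herbicide propyzamide or vehicle. They were chosen by symbol, in 2 classes: 23 genes of G2 phase and mitosis, and 13 genes of the G1-to-S transition and DNA replication. RNA was sequenced from 3 libraries of propyzamide-treated mice and 2 libraries of vehicle-treated mice. All mice were C57BL/6 males of 11 weeks in which TNBS (trinitrobenzene sulfonic acid, a hapten that inflames the colon) had been given, and the tissue was collected on day 3. No group without TNBS was analysed here. The labels do not state the dose, the colon segment or whether every library came from its own mouse. The p-values therefore speak to how far these libraries vary, and that variation may be technical.

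Cells that divide build cyclins, kinases and replication proteins in a fixed order. E2F transcription factors switch on the replication genes at the start of S phase, and a later wave of transcription supplies the spindle, the mitotic kinases and the spindle checkpoint, which delays chromosome separation until every chromosome is attached to microtubules. In the colon most division takes place in the lower part of the crypts, and dividing immune and stromal cells add to it in inflamed tissue. Propyzamide binds plant tubulin and stops microtubule assembly in weeds. Agents that block microtubules in animal cells hold them in mitosis, where G2/M transcripts are abundant and S-phase transcripts are not, so the question put to these data is whether the G2/M class was raised and the S-phase class was not.

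No member of either class passed the test. Of the 36 members, all of which passed the filter on low counts, 0 rose and 0 fell in propyzamide by edgeR's quasi-likelihood test (Benjamini-Hochberg adjusted p under 0.05 over 12024 tested genes), where 1.90% of all tested genes changed, 0.690% higher and 1.21% lower. Only Pcna was under an unadjusted p of 0.05, against 18.2% of all tested genes. DESeq2 called 0 members, against 2.46% of the genes it gave an adjusted p, with 0 members under an unadjusted p of 0.05, against 7.35% of all genes. Limma on log2(TPM + 1) called 1 member (Aurkb), against 4.08% of tested genes, with 7 under an unadjusted p of 0.05, against 15.8%. Limma on log2(TPM + 0.1) called 0 members, against 2.30%, with 5 under an unadjusted p of 0.05, against 13.5%. The median log2 fold change, propyzamide over vehicle, was -0.012 over the G2/M class, with 10 members positive and 13 negative, and -0.16 over the S-phase class, with 6 positive and 7 negative. Over all tested genes it was -0.018. Limma on log2(TPM + 1) put the medians at -0.57 for G2/M, -0.55 for S phase and -0.39 for all tested genes. On log2(TPM + 0.1) they were -0.85, -0.6 and -0.47, so the level of the class medians depended on the scale. In edgeR the difference between the class medians (G2/M minus S phase) was 0.15, and it lay between -0.25 and 0.35 over the 16 alternative settings. Single libraries moved both medians: without propyzamide replicate 1 they were -0.53 over the 14 G2/M members still tested and -0.88 over the 13 S-phase members, and without vehicle replicate 1 they were 0.66 and 0.33.

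Summed over the class, the G2/M genes stood at 559, 170 and 268 CPM (counts relative to library sizes scaled by the TMM method) in propyzamide replicates 1, 2 and 3, against 392 and 213 CPM in vehicle replicates 1 and 2. The groups overlapped, with means of 333 ± 202 CPM in propyzamide (SD, n = 3) and 302.5 ± 126 CPM in vehicle (SD, n = 2). The S-phase genes summed to 266, 114 and 148 CPM in propyzamide and to 213 and 135 CPM in vehicle, and these groups overlapped too. In bulk tissue the number of dividing cells and the amount of these RNAs in each cell cannot be told apart. The spread inside propyzamide was 3.28-fold for G2/M and 2.33-fold for S phase between the highest and the lowest library, and inside vehicle it was 1.84-fold and 1.58-fold. These spreads were larger than the ratio of the group means, which was 1.10 for G2/M and 1.01 for S phase.

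**Figure D1:**
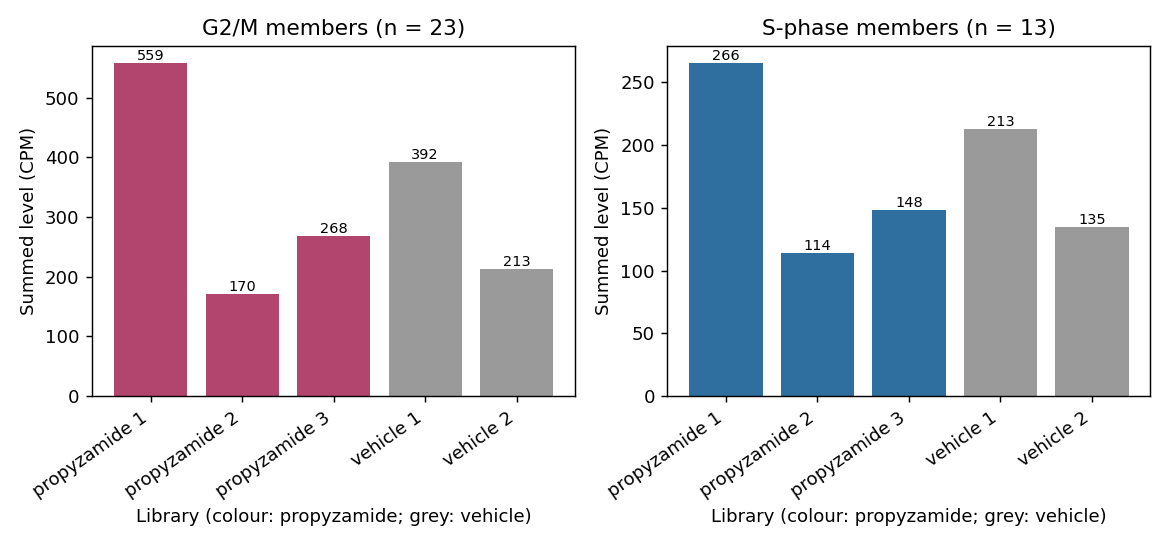
Summed level in CPM (y axis) of the 23 G2/M members (left) and the 13 S-phase members (right) in each library (x axis; coloured bars, propyzamide; grey bars, vehicle). Propyzamide replicate 1 was the highest library of both panels, at 559 and 266 CPM, and propyzamide replicate 2 the lowest, at 170 and 114 CPM.

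The 2 classes moved together from library to library. The mean log2(CPM + 1) of the G2/M class minus that of the S-phase class was 0.10, -0.45 and -0.30 in propyzamide, against -0.027 and -0.26 in vehicle. The group means of this difference were -0.22 ± 0.29 in propyzamide (SD, n = 3) and -0.14 ± 0.17 in vehicle (SD, n = 2), a gap of -0.073 that is smaller than either SD. In TMM-scaled CPM propyzamide replicate 1 held the highest level of 23 of the 36 members and vehicle replicate 1 that of 11. Propyzamide replicates 2 and 3 held the highest level of 0. Over all tested genes 13.7% had their highest level in propyzamide replicate 1 and 20.2% in vehicle replicate 1. Among the propyzamide libraries replicate 1 was the highest for 33 of the 36 members, against 34.2% of all tested genes, and vehicle replicate 1 stood above vehicle replicate 2 for 32 of the 36, against 49.4% of all tested genes. Which of these 2 libraries was the highest depended on the scale. The TMM factor was 1.61 in vehicle replicate 1 and 0.797 to 1.10 in the other libraries. In TPM vehicle replicate 1 held the highest level of most members. Mki67 stood at 14.1 TPM there and at 8.23 TPM in propyzamide replicate 1, whereas Birc5 stood at 35.65 and 58.9 TPM.

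**Figure D2:**
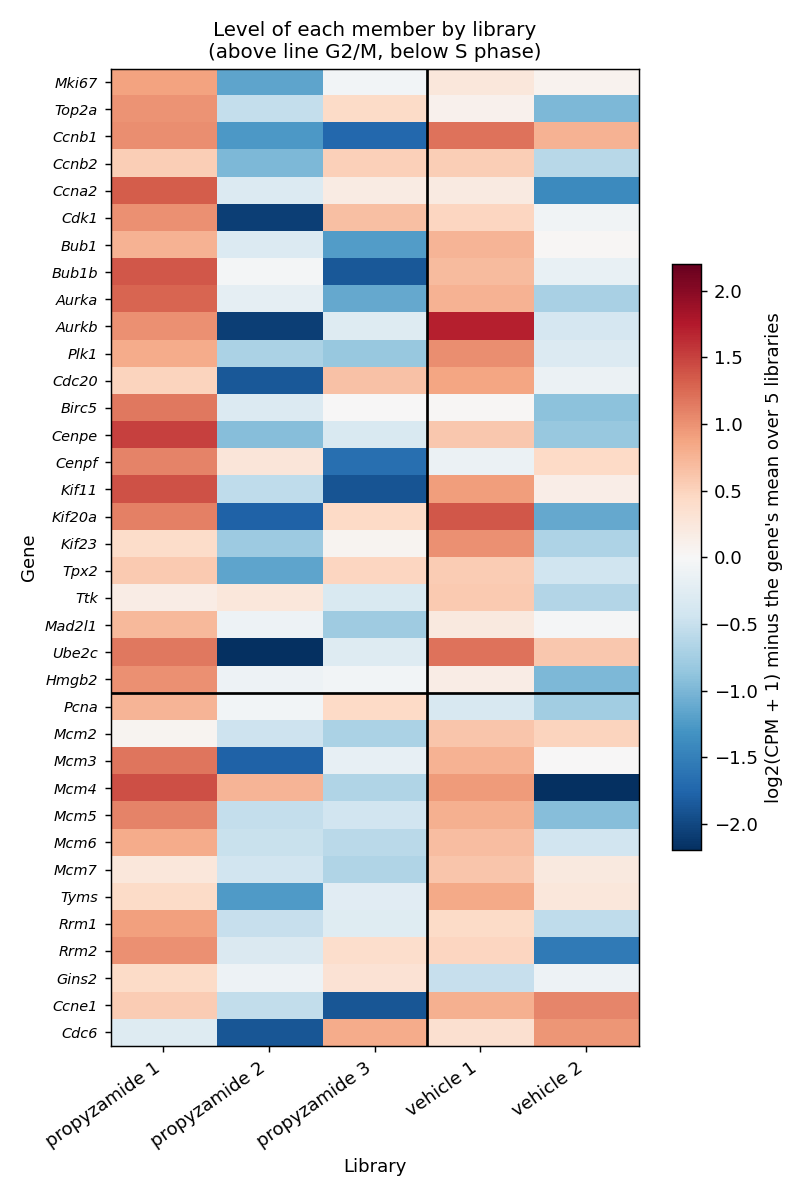
Level of each of the 36 members (rows; G2/M above the horizontal line, S phase below it) in each library (columns; propyzamide left of the vertical line, vehicle right of it), as log2(CPM + 1) minus the gene's own mean over the 5 libraries. Propyzamide replicate 1 and vehicle replicate 1 are the high columns for most genes, with 23 and 11 of the 36 maxima.

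The libraries also differed in makeup along the same split. Within each group the library with the highest class sums had the lowest sum of 12 smooth-muscle markers, at 6539 CPM in propyzamide replicate 1 beside 10374 and 11137 CPM in replicates 2 and 3, and at 598 CPM in vehicle replicate 1 beside 4001 CPM in replicate 2. It also had the lowest share of mitochondrial counts, 10.01% in propyzamide replicate 1 beside 21.6% and 14.6%, and 9.998% in vehicle replicate 1 beside 19.7%. The summed level of 10 crypt stem-cell markers was 178 CPM in propyzamide replicate 1 beside 117 and 118 CPM, and 246 CPM in vehicle replicate 1 beside 208 CPM. The part of tissue makeup in the levels of the cell cycle genes was not tested.

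Relative to the summed level of 12 epithelial markers, which ranged from 9077 to 13302 CPM in propyzamide and from 6354 to 8786 CPM in vehicle, the G2/M class stood at 4.44%, 1.88% and 2.02% in propyzamide, against 4.46% and 3.36% in vehicle. Propyzamide replicate 1 lay between the 2 vehicle libraries, and replicates 2 and 3 lay below both. The S-phase class stood at 2.11%, 1.26% and 1.11% of the epithelial sum in propyzamide, against 2.42% and 2.13% in vehicle, so that all propyzamide libraries were lower, replicate 1 by a small margin. This ratio falls both when cycle genes are lower and when epithelial markers are higher, and the epithelial sum was higher in every propyzamide library than in either vehicle library. Single epithelial markers did not all follow the sum: 8 were positive and 4 negative, with a median log2 fold change of 0.21.

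**Figure D3:**
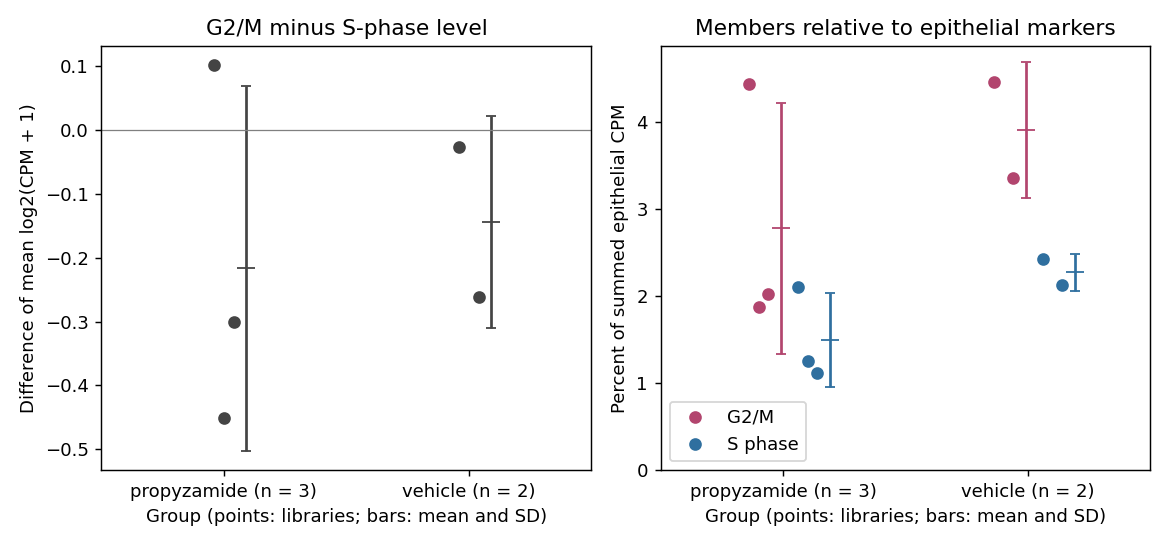
Left, mean log2(CPM + 1) of the G2/M class minus that of the S-phase class; right, each class as a percent of the summed CPM of 12 epithelial markers (points, libraries; bars, mean and SD; propyzamide n = 3, vehicle n = 2). On the left propyzamide runs from -0.45 to 0.10, and both vehicle libraries, at -0.027 and -0.26, lie inside that range. On the right G2/M overlaps while S phase runs from 1.11% to 2.11% in propyzamide and from 2.13% to 2.42% in vehicle.

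Depth limits each of these values. Libraries held 1573700 to 2706885 estimated counts. With rRNA-like loci and mitochondrial genes set aside 823560 to 1328836 were left, and 1 count was worth 0.340 to 0.609 CPM. Background reads, estimated from 1432 olfactory and vomeronasal receptor genes that are mostly silent outside sensory neurons, made up 0.553%, 5.74% and 2.14% of these remaining counts in propyzamide, against 11.3% and 8.62% in vehicle. Of the G2/M class sum the background expected from gene length was 0.433%, 17.1% and 3.87% in propyzamide and 11.6% and 18.4% in vehicle. With it removed the class sums were 557, 143 and 258 CPM in propyzamide and 346 and 175 CPM in vehicle, still overlapping. Estimated counts of 11 members were not whole (tolerance 0.06 of a count) because reads were divided with another gene, so the values of Mki67, Ccnb1, Ccna2, Plk1, Kif20a, Hmgb2, Pcna, Mcm7, Tyms, Rrm2 and Gins2 are less certain. Markers of position along the gut differed between the groups, with 1 tested marker of each list going the other way. The 5 distal-colon markers summed to 105, 55.4 and 56.6 CPM in propyzamide, against 255 and 314 CPM in vehicle. Of 4 tested position markers of the distal colon 2 fell and 1 was positive: Hoxd13 had 0 counts in all propyzamide libraries and 81 and 91 in vehicle, Hoxd12 (not tested) had 0 in propyzamide and 11 and 3 in vehicle, and Hoxa13 had 30, 27 and 17 in propyzamide and 11 and 16 in vehicle (0.77 ± 0.57 log2, SE; not past the test). The 10 small-intestine markers summed to between 301 and 1134 CPM in propyzamide and to between 54.5 and 59.6 CPM in vehicle. Of the 6 tested 3 rose and 1 fell, with a median log2 fold change of 5.36. Apoa1 had 0 counts in vehicle and the highest log2 fold change of the list, 8.74. The 1 that fell was the Paneth-cell lysozyme Lyz1, with 0, 3 and 0 counts in propyzamide and 60 and 10 in vehicle. Hoxa13 and Lyz1 were named after their values were seen. The treatment, this difference in markers and the second index sequence, which differed between the groups per the deposited labels, cannot be told apart.

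Promoters are shown for 3 members of each class whose values are taken up below, because the 2 classes are known for different upstream elements. RefSeq promoters on GRCm38.p6 were found for 30 of the 36 members, 19 of G2/M and 11 of S phase, and the 250 bases upstream of the start were searched on both strands. The CCAAT box, the NF-Y binding motif, was present in 17 of 19 G2/M and 8 of 11 S-phase promoters (89.5% and 72.7%), against 33.8% of all 32851 promoter entries. The letters TTTGAA of the cell cycle genes homology region, a G2/M element, were in 8 of 19 G2/M and 1 of 11 S-phase promoters (42.1% and 9.09%), against 16% of all entries. E2F-type letters (TTTCCCGC, TTTGGCGC, TTTCGCGC or TTTGCCGC) were in 1 of 19 G2/M promoters, that of Cdk1, and in 4 of 11 S-phase promoters, those of Cdc6, Mcm5, Mcm6 and Mcm7 (5.26% and 36.4%), against 1.86% of all entries. A match is a description of letters and not a bound site. Overlaps between motifs of different kinds numbered 0, while E2F-type matches on opposite strands overlap each other in Mcm5 and Mcm6. The RefSeq start can differ from the start of the GENCODE M21 gene span. The windows of Ccnb1, Cdc20, Ube2c and Pcna therefore lie partly inside that span. The 170 bases upstream of the RefSeq start are given 5′ to 3′ on the strand of the gene, with matches of these motifs on either strand in capitals.
Ccnb1 (chr13:100786487-100786656, minus strand): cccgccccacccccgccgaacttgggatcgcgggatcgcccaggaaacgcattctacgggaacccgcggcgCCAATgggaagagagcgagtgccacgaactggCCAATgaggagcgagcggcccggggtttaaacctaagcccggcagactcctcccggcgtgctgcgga
Cdc20 (chr4:118437344-118437513, minus strand): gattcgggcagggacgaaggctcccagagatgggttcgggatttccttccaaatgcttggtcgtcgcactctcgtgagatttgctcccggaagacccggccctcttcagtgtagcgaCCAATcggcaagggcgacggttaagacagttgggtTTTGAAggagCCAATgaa
Ube2c (chr2:164769759-164769928, plus strand): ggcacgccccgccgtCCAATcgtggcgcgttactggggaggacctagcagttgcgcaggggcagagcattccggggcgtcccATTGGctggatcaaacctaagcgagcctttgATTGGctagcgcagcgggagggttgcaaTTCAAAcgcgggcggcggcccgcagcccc
Mcm5 (chr8:75109339-75109508, plus strand): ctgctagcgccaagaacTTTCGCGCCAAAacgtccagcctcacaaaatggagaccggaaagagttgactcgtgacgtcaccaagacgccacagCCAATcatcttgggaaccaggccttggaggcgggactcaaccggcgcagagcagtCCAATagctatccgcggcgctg
Mcm6 (chr1:128359706-128359875, minus strand): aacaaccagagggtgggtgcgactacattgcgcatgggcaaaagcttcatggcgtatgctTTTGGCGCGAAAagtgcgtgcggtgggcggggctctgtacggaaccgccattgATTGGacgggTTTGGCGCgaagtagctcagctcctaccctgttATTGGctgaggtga
Pcna (chr2:132253181-132253350, minus strand): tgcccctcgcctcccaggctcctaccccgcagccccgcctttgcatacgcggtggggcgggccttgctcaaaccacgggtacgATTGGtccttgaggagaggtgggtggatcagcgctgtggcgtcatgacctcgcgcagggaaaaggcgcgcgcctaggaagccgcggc
Of the letters searched, Ube2c and Cdc20 carry both CCAAT and TTTGAA in these windows, and Ccnb1 carries CCAAT alone. Mcm5 and Mcm6 carry CCAAT and E2F-type letters, and Pcna carries 1 CCAAT box on the opposite strand. Variants of TTTGAA were not searched, so an element with other letters could have been missed. As measured below, Ccnb1 and Ube2c stood at negative and Pcna at a positive fold change, none of them past the test.

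Among the general markers of proliferation, Mki67, which encodes the Ki-67 antigen of cycling cells, stood at 77.1, 17.97 and 39.6 CPM in propyzamide, against 49.2 and 43.7 CPM in vehicle. Both vehicle libraries lay inside the range of the propyzamide libraries, and the log2 fold change was -0.037 ± 0.50 (SE) with a 95% interval from -1.12 to 1.04. Top2a, the topoisomerase that untangles sister chromosomes, stood at 65.3, 22.1 and 43.8 CPM in propyzamide, against 34.7 and 15.9 CPM in vehicle (0.78 ± 0.50 log2, SE). Hmgb2, a chromatin protein of dividing cells, stood at 68.0, 30.8 and 32.3 CPM in propyzamide, against 37.6 and 16.5 CPM in vehicle (0.69 ± 0.48 log2, SE). The edgeR adjusted p was 0.980 for Mki67, 0.443 for Top2a and 0.493 for Hmgb2. On the GRCm38 build and its GENCODE M21 annotation Mki67 spans chromosome 7 from 135689784 to 135716361.

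The mitotic cyclins did not share a direction. Ccnb1, cyclin B1, the partner that carries Cdk1 into mitosis, stood at 13.9, 2.05 and 1.22 CPM in propyzamide, against 15.7 and 11.3 CPM in vehicle. Propyzamide replicate 1 lay between the vehicle libraries and the other two below both, at 4 and 2 counts, and the log2 fold change was -1.14 ± 0.79 (SE; edgeR adjusted p = 0.495). Without propyzamide replicate 1 it was -3.03 with an edgeR adjusted p of 0.0456, the 1 setting of 16 in which Ccnb1 passed, and the adjusted p ranged from 0.0456 to 0.824 over them. Ccna2, cyclin A2, which acts in S phase and G2, stood at 50.98, 15.9 and 22.5 CPM in propyzamide, against 22.7 and 6.81 CPM in vehicle (1.0 ± 0.59 log2, SE; edgeR adjusted p = 0.404). Ccnb2 stood at 22.8, 7.19 and 22.5 CPM in propyzamide and at 22.7 and 9.65 CPM in vehicle, and Cdk1, the mitotic kinase itself, at 20.4, 1.54 and 15.8 CPM in propyzamide and at 13.6 and 9.08 CPM in vehicle. Their log2 fold changes were 0.099 ± 0.57 and 0.15 ± 0.74 (SE). On GRCm38 Ccnb1 spans chromosome 13 from 100778650 to 100786570.

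Of the mitotic kinases, Aurkb, the kinase of the chromosomal passenger complex that corrects faulty attachments, stood at 7.48, 0 and 2.44 CPM in propyzamide, against 12.8 and 2.27 CPM in vehicle. Its 0 in propyzamide replicate 2 allows up to 1.54 CPM (3 counts, counting error only). The log2 fold change was -1.12 ± 1.06 (SE; edgeR adjusted p = 0.630). Limma on log2(TPM + 1) put it at -2.47 with a limma adjusted p of 0.0453. Aurkb passed in this 1 setting of 15 (adjusted p range 0.0453 to 0.953). With counts on protein-coding transcripts only, Aurkb stood at -0.51 log2 (edgeR adjusted p = 0.922). These transcripts held 68.1% and 0% of its counts in vehicle replicates 1 and 2, against 100% and 91.0% in propyzamide replicates 1 and 3. Birc5, the survivin subunit of the same complex, stood at 45.5, 15.9 and 20.1 CPM in propyzamide, against 20.3 and 10.2 CPM in vehicle (0.84 ± 0.53 log2, SE). Plk1, which drives mitotic entry and spindle building, stood at 13.6, 4.11 and 3.65 CPM in propyzamide and at 15.7 and 5.67 CPM in vehicle (-0.55 ± 0.70 log2, SE). Aurka, the centrosome kinase, was low, at 7.48, 2.05 and 0.609 CPM in propyzamide and at 4.96 and 1.13 CPM in vehicle (0.18 ± 1.05 log2, SE). The 2 partners in the passenger complex, Aurkb and Birc5, thus had opposite signs, neither past the test.

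The spindle checkpoint genes hold the cell in mitosis while attachments are missing. Over the 5 libraries Bub1, Bub1b and Ttk had 39, 46 and 49 counts, and Mad2l1 had 163. Mad2l1, the checkpoint effector that binds Cdc20, stood at 22.4, 12.3 and 7.31 CPM in propyzamide, against 15.7 and 13.1 CPM in vehicle (-0.012 ± 0.53 log2, SE). Bub1, a checkpoint kinase of the kinetochore, had 16, 4 and 1 counts in propyzamide and 13 and 5 counts in vehicle (-0.53 ± 0.95 log2, SE). Its partner Bub1b had 25, 5 and 0 counts in propyzamide and 12 and 4 counts in vehicle (0.089 ± 1.09 log2, SE), so the libraries overlapped for both. Ttk, the kinase that starts the checkpoint, had 14, 10 and 5 counts in propyzamide and 16 and 4 counts in vehicle (-0.059 ± 0.80 log2, SE). Summed, the 4 checkpoint genes stood at 41.1, 22.1 and 11.0 CPM in propyzamide, against 32.7 and 20.4 CPM in vehicle, with overlap. Against background, 7 of the 23 G2/M members reached 5 times the level expected for their length in all 5 libraries. Bub1, Bub1b, Cenpf and Kif11 did so in propyzamide replicate 1 alone.

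Cdc20, which activates the anaphase-promoting complex, and Ube2c, the enzyme that passes ubiquitin to it, are needed to leave mitosis. Ube2c stood at 28.2, 1.03 and 9.74 CPM in propyzamide, against 28.9 and 18.7 CPM in vehicle. Propyzamide replicate 1 was close to vehicle replicate 1, and replicate 2 had 2 counts, a 27.5-fold range within propyzamide, the widest of the G2/M members with counts in all propyzamide libraries. The log2 fold change of Ube2c was -0.83 ± 0.76 (SE; edgeR adjusted p = 0.621). Cdc20 stood at 11.9, 1.54 and 13.4 CPM in propyzamide and at 15.7 and 7.38 CPM in vehicle (-0.38 ± 0.72 log2, SE; edgeR adjusted p = 0.844). Per length, Ube2c was also among the most abundant members, with a mean of 25.1 TPM over the 5 libraries, second to Birc5 at 27.0 TPM and ahead of Pcna at 20.3 TPM, and the libraries spread so widely (1.02 to 59.2 TPM for Ube2c) that the order of these 3 is not resolved.

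The motor and spindle assembly genes gave no shared direction. Kif11, the plus-end motor that separates the spindle poles, stood at 15.0, 3.08 and 0.609 CPM in propyzamide, against 10.3 and 5.67 CPM in vehicle. Tpx2, which nucleates spindle microtubules, stood at 12.6, 3.08 and 11.6 CPM in propyzamide and at 12.4 and 5.67 CPM in vehicle, a log2 fold change of -0.0030 ± 0.66 (SE). Kif23, a motor of the central spindle, stood at 9.52, 3.59 and 7.31 CPM in propyzamide and at 14.9 and 3.97 CPM in vehicle. Kif20a, which acts in cytokinesis, had 0 counts in propyzamide replicate 2 and 1 count in vehicle replicate 2, and 19, 6 and 19 in the rest (propyzamide replicates 1 and 3 and vehicle replicate 1). All of these motors overlapped between the groups. Cenpe, a kinetochore motor, stood at 15.6, 2.05 and 3.65 CPM in propyzamide and at 7.86 and 2.27 CPM in vehicle (0.51 ± 0.89 log2, SE). Cenpf, a kinetochore protein, stood at 26.2, 14.4 and 3.04 CPM in propyzamide and at 10.8 and 16.5 CPM in vehicle (0.14 ± 0.67 log2, SE). The log2 fold changes of Kif11, Kif20a and Kif23 were -0.30 ± 0.90, -0.32 ± 1.17 and -0.48 ± 0.69 (SE). The edgeR adjusted p of the 6 genes lay between 0.782 and 0.999.

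In the S-phase class the groups did not overlap for 3 of 13 members, Pcna higher and Mcm2 and Ccne1 lower in propyzamide, while 37.5% of all tested genes were separated in this way, 16.7% higher and 20.8% lower. In the G2/M class 0 of 23 were separated. Pcna, the sliding clamp that tethers DNA polymerase, stood at 39.1, 22.1 and 31.7 CPM in propyzamide, against 17.8 and 13.1 CPM in vehicle. Its log2 fold change was 1.0 ± 0.42 (SE), with a 95% interval from 0.095 to 1.91, an unadjusted edgeR p of 0.033 and an adjusted p of 0.226, which ranged from 0.173 to 0.703 over 16 alternatives. With counts on protein-coding transcripts only it stood at 0.52. On GRCm38 Pcna spans chromosome 2 from 132249162 to 132253314.

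The helicase that unwinds DNA at the fork is built of Mcm2 to Mcm7. Mcm2 stood at 9.86, 6.67 and 5.48 CPM in propyzamide, against 14.9 and 13.6 CPM in vehicle, and its log2 fold change was -0.93 ± 0.52 (SE; edgeR adjusted p = 0.375, range 0.248 to 0.721 over 16 alternatives). The other subunits overlapped between the groups: Mcm7 stood at 14.6, 8.73 and 7.31 CPM in propyzamide and at 19.0 and 14.2 CPM in vehicle, and Mcm6 at 24.1, 9.24 and 8.52 CPM in propyzamide and at 21.9 and 9.65 CPM in vehicle. Mcm5 stood at 19.4, 5.65 and 6.09 CPM in propyzamide and at 15.3 and 3.97 CPM in vehicle. Mcm3 stood at 26.5, 2.57 and 9.74 CPM in propyzamide and at 19.9 and 11.3 CPM in vehicle. Mcm4 had 40, 16 and 4 counts in propyzamide and 23 and 0 counts in vehicle. Although the 6 subunits form 1 ring, their log2 fold changes ran from -0.93 for Mcm2 to 0.73 for Mcm4, with standard errors of 0.50 to 1.02, and between them lay Mcm7 at -0.68, Mcm3 at -0.24, Mcm6 at -0.16 and Mcm5 at 0.12. Their summed level was 108, 41.1 and 39.6 CPM in propyzamide, against 100.5 and 52.8 CPM in vehicle.

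Entry into S phase and origin licensing rested on few counts. Ccne1, cyclin E1, which starts S phase with Cdk2, had 13, 3 and 0 counts in propyzamide and 13 and 12 counts in vehicle, or 4.42, 1.54 and 0 CPM against 5.38 and 6.81 CPM. Its log2 fold change of -1.47 ± 1.0 (SE; edgeR adjusted p = 0.485, range 0.172 to 0.815 over 16 alternatives) was the lowest of all members, and its 0 in propyzamide replicate 3 allows up to 1.83 CPM. Cdc6, which loads the helicase onto origins, had 6, 0 and 9 counts in propyzamide and 9 and 11 counts in vehicle (-1.01 ± 1.08 log2, SE).

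Transcripts annotated as protein-coding held 79.7%, 66.8% and 60.7% of the S-phase counts in propyzamide, against 75.8% and 62.0% in vehicle, and 90.2% to 95.2% of the G2/M counts in all libraries. Of the other replication genes, Gins2, a subunit of the active helicase, stood at 31.6, 21.6 and 29.2 CPM in propyzamide, against 16.1 and 21.6 CPM in vehicle (0.55 ± 0.40 log2, SE; edgeR adjusted p = 0.515), with replicate 2 of both groups level. Only 24.9% of its counts lay on protein-coding transcripts, and on these alone it stood at -1.26. Tyms, thymidylate synthase, which makes the thymine nucleotide, stood at 20.1, 5.65 and 12.2 CPM in propyzamide, against 26.9 and 17.6 CPM in vehicle (-0.80 ± 0.53 log2, SE; edgeR adjusted p = 0.466), with 30.9% of its counts on protein-coding transcripts, and on these alone it stood at 0.77. The subunits of ribonucleotide reductase, which supplies deoxynucleotides, were Rrm1 at 42.1, 15.4 and 18.3 CPM in propyzamide and 30.2 and 14.8 CPM in vehicle, and Rrm2 at 18.4, 6.67 and 11.6 CPM in propyzamide and 12.4 and 2.27 CPM in vehicle. Their log2 fold changes were 0.18 ± 0.50 and 0.70 ± 0.70 (SE).

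**Figure D4:**
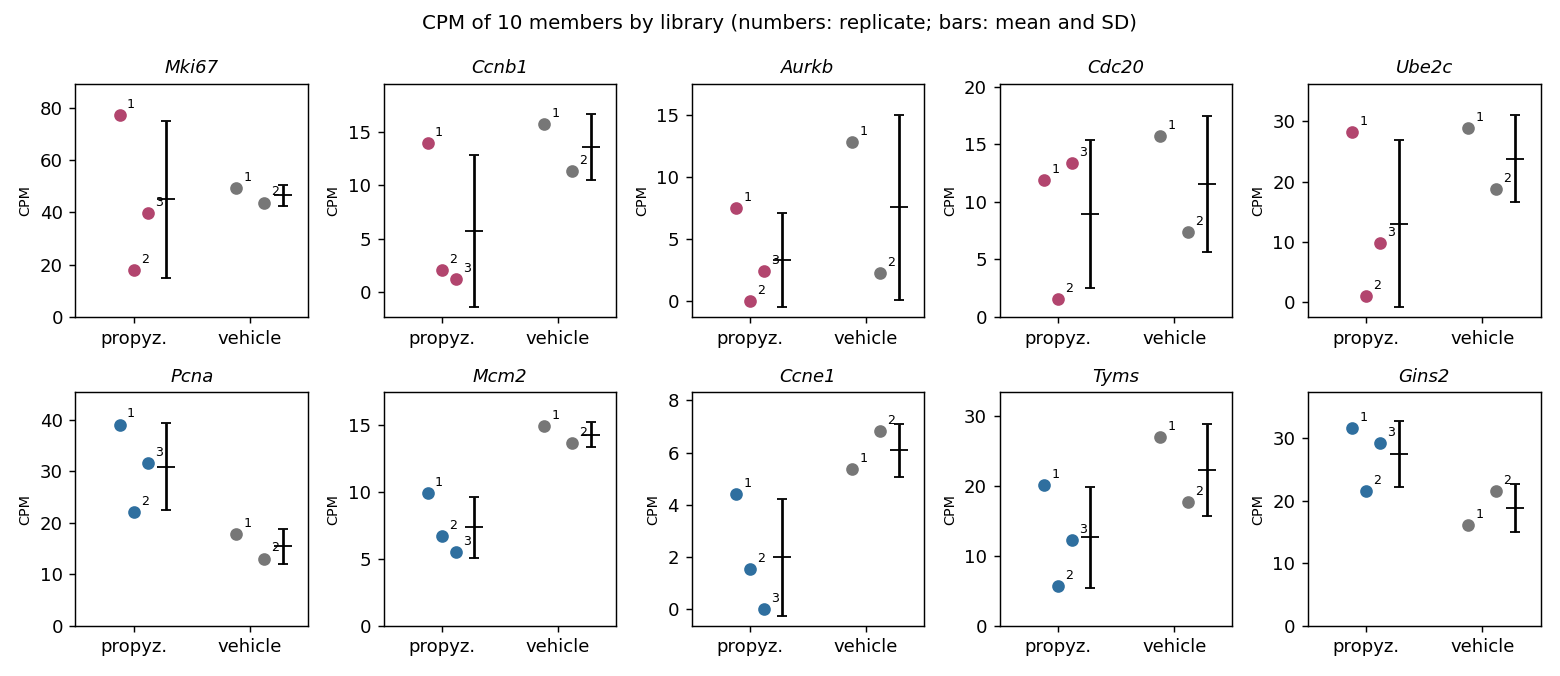
CPM (y axis) of 10 members in propyzamide (coloured points, left of each panel, n = 3) and vehicle (grey points, right, n = 2), with replicate numbers beside the points and bars for the mean and SD. Of the panels, Pcna, Mcm2 and Ccne1 show no overlap between groups, and propyzamide replicate 1 is the highest propyzamide point in all but Cdc20.

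The intervals show what changes the data could hold. For 35 of the 36 members the 95% interval of the log2 fold change contained 0, and for 20 of the 36 it stayed between -2 and 2. A 2-fold rise lay outside the interval for 3 of the 23 G2/M members (Ccnb1, Plk1 and Ube2c) and for 4 of the 13 S-phase members (Mcm2, Mcm7, Tyms and Ccne1). A 2-fold fall lay outside it for 4 members of each class, Top2a, Ccna2, Birc5 and Hmgb2 in G2/M and Pcna, Rrm1, Rrm2 and Gins2 in S phase. These intervals hold for edgeR on counts of all transcripts. With counts on protein-coding transcripts only, Gins2 stood at -1.26 ± 1.36 and Tyms at 0.77 ± 0.98 log2 (SE), so these bounds did not carry over for them. The other 21 members had intervals that held both a 2-fold rise and a 2-fold fall, so changes of that size in either direction lay within the error of these libraries.

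**Figure D5:**
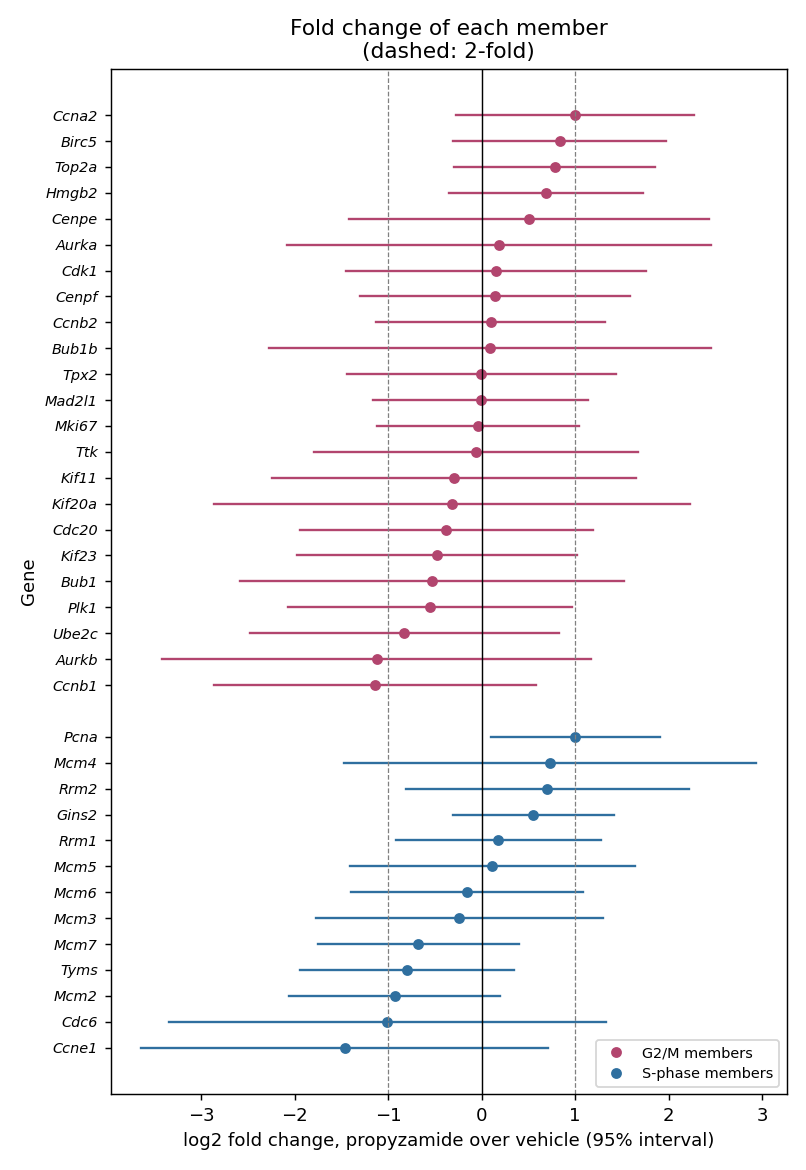
Log2 fold change, propyzamide over vehicle (x axis), of each member (rows, ordered by value within class) with its 95% interval from the quasi-likelihood fit; dashed lines mark 2-fold. The intervals of 35 of the 36 members cross 0, and that of Pcna runs from 0.095 to 1.91.

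Around these members, 9 further lists of cell cycle genes held 201 names, of which 179 were tested. In edgeR 0 rose and 0 fell, against 0.690% and 1.21% of all tested genes, and 14 were under an unadjusted p of 0.05, against 18.2%. Of the 179, 84 were positive and 95 negative, with a median log2 fold change of -0.039. DESeq2 fitted 200 of the listed genes and called 0, against 2.46% of the genes it gave an adjusted p. It put 10 under an unadjusted p of 0.05, against 7.35% of all genes. Limma called 1 at either pseudocount, Nsl1 of the kinetochore list, against 4.08% and 2.30% of tested genes with pseudocounts of 1 and 0.1. Nsl1 was named after its value was seen. Limma put 12 and 7 under an unadjusted p of 0.05, against 15.8% and 13.5%. Medians were -0.37 over 39 other G2/M regulators, -0.11 over 21 kinetochore genes, 0.039 over 15 subunits and partners of the anaphase-promoting complex, 0.17 over 17 condensin and cohesin genes and -0.097 over 43 other replication genes. They were 0.45 over 5 inhibitors of cyclin-dependent kinases, 0.14 over 8 G1 cyclins and kinases, -0.088 over 19 E2F, RB and related regulators and -0.22 over 12 p53 response genes.

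Cdkn1a, the p21 inhibitor that p53 induces, stood at 188, 158 and 212 CPM in propyzamide, against 90.2 and 213 CPM in vehicle (0.30 ± 0.41 log2, SE; edgeR adjusted p = 0.767). Ccnd1, cyclin D1, stood at 39.1, 13.9 and 23.7 CPM in propyzamide and at 23.2 and 8.51 CPM in vehicle, and Foxm1, a driver of the mitotic wave, at 10.5, 3.08 and 6.70 CPM in propyzamide and at 6.62 and 8.51 CPM in vehicle. E2f1 did not pass the filter, with 10, 6 and 4 counts in propyzamide and 4 and 6 in vehicle. Lgr5, the stem-cell receptor of the crypt, fell: it stood at 1.36, 0.513 and 1.22 CPM in propyzamide and 15.3 and 9.65 CPM in vehicle, a log2 fold change of -3.50 ± 0.77 (SE; edgeR adjusted p = 0.0417). Of the 7 crypt stem-cell markers tested, 1 fell, 0 rose and all 7 were negative, with a median of -0.78, and Olfm4 had 0 counts in propyzamide and 0 and 1 in vehicle.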

How the data were processed

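RNA of mouse colon tissue was sequenced after SMART-Seq2 library preparation, 1 library per sample, in 3 propyzamide and 2 vehicle samples. The authors deposited RSEM tables of 142647 transcripts per library that hold estimated counts, TPM, FPKM and the percent of each gene's expression on each transcript, per the file headers. RSEM, kallisto and GRCm38 are named in the submitters' processing notes, which state neither the annotation release nor the strand setting. FPKM and percent as deposited by the authors were not used.

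Estimated counts and TPM were summed by the gene ID in the tables, of which 98.2% had a symbol and 98.4% were in GENCODE M21 (GRCm38), and counts were rounded. Replicates were not duplicates. edgeR 4.0.16 (R 4.3.3) fitted quasi-likelihood models over all 5 libraries with treatment as the factor, TMM scaling and filterByExpr, leaving 12024 genes, and p-values were adjusted by Benjamini-Hochberg at 0.05. CPM use the TMM-scaled library sizes. Standard errors and 95% intervals are those of the log2 fold change. Intervals and floors cover counting error or the spread between these libraries only. Alternatives used limma 3.58.1 on log2(TPM + 1) and log2(TPM + 0.1), whose fold changes are on that scale, and DESeq2 1.42.0. The gene members and lists were chosen with earlier results of these data known. All 36 members are named whatever their values, with Cdkn1a, Ccnd1, E2f1, Foxm1 and Lgr5, and from other cell cycle lists genes past the threshold. Single markers are named where a whole group is at 0, and Hoxa13 and Lyz1 are named besides.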

Additional observations from a re-analysis of the deposited data

How the results depend on the processing

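Where tested (27 members without propyzamide replicate 1, 35 with background subtracted, 34 on protein-coding transcripts, otherwise 36), members kept their side of the threshold in the 16 alternatives but for Ccnb1 without propyzamide replicate 1 and Aurkb by limma with a pseudocount of 1, where 1 member changed in each case (0 to 1 when single libraries were left out). Changed genes over the whole table, 229 (83 higher) as reported, numbered 1327 (450 higher) with no filter, 401 (214 higher) by DESeq2, 490 (66 higher) and 277 (40 higher) by limma with pseudocounts of 1 and 0.1, 314 (79 higher) with upper-quartile scaling, 362 (104 higher) without rRNA-like and mitochondrial genes, 105 (53 higher) with background subtracted and 38 (19 higher) on protein-coding transcripts only, an alternative chosen after seeing the data. They ranged from 36 without vehicle replicate 1 to 499 without propyzamide replicate 1, with 55 without vehicle replicate 2 and 78 without propyzamide replicate 3. The median of all genes moved to -0.14 with upper-quartile scaling, to -1.14 with no filter and -1.26 by DESeq2 over 37309 genes, and to -0.39 and -0.47 by limma; the cause was not tested. Leaving out single libraries gave G2/M medians of -0.53 to 0.66, S-phase medians of -0.88 to 0.33 and differences of -0.04 to 0.35, and limma with a pseudocount of 0.1 gave a difference of -0.25. With the replicate number as a block, 639 genes changed (324 higher), 0 members changed, the medians were -0.17 for G2/M and 0.05 for S phase, and the difference was -0.23. The labels do not say that numbers pair the libraries. The deviations of same-numbered libraries correlated at 0.171 and 0.148 over genes, the highest of 6 pairings, but only 2 pairs exist and the deviations of the 2 vehicle libraries mirror each other, so whether the numbers pair libraries is not settled.

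Of the 36 members 13 kept their sign throughout. Signs turned with upper-quartile scaling in Ccnb2 (-0.023), Bub1b (-0.02) and Mcm5 (-0.0006); with no filter in Mki67 (0.11), Tpx2 (0.13), Ttk (0.067) and Mad2l1 (0.13); by DESeq2 in Mki67 (0.0026), Tpx2 (0.045) and Mad2l1 (0.028). By limma with pseudocounts of 1 and 0.1 they turned in Ccnb2 (-0.30 and -0.32), Cdk1 (-0.57 and -0.69), Bub1b (-1.23 and -2.52), Aurka (-0.29 and -0.48), Cenpe (-0.69 and -1.34), Cenpf (-1.61 and -2.38), Kif23 (0.33 and 0.47), Mcm5 (-0.31 and -0.28) and Rrm1 (-0.69 and -0.74). With the replicate block they turned in Ccnb2 (-0.17), Cdk1 (-0.48), Ttk (0.23), Mad2l1 (0.24) and Mcm6 (0.0525), with background subtracted in Ccnb2 (-0.059), Tpx2 (0.0080), Ttk (0.24) and Mad2l1 (0.031), and on protein-coding transcripts in Ccnb2 (-0.047), Tyms (0.77) and Gins2 (-1.26). Leaving out single libraries gave ranges across 0 for Mki67 (-0.74 to 0.33), Aurkb (-1.80 to 0.56), Plk1 (-1.03 to 0.35), Cdc20 (-0.75 to 0.26), Cenpf (-0.65 to 0.59), Kif11 (-0.59 to 0.19), Kif20a (-1.11 to 2.46), Kif23 (-1.05 to 0.76), Tpx2 (-0.39 to 0.66), Ttk (-0.55 to 0.90), Mad2l1 (-0.59 to 0.28), Mcm3 (-1.42 to 0.23), Mcm6 (-0.88 to 0.54), Ccnb2 (-0.32 to 0.84), Cdk1 (-0.47 to 0.66), Bub1b (-0.29 to 0.73), Aurka (-0.42 to 1.56), Cenpe (-0.029 to 1.65), Mcm4 (-0.14 to 7.10, with vehicle replicate 2 at 0 counts), Mcm5 (-0.78 to 1.39) and Rrm1 (-0.47 to 0.77). Leaving out a vehicle library left 1 there, which is assumed to vary like the propyzamide libraries.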

Other observations

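Since the members moved together from library to library, each was also set against Mki67 in the same library, a comparison chosen after the values were seen. Of the 22 other G2/M members, 4 had a higher ratio to Mki67 in all propyzamide libraries than in both vehicle libraries (Top2a, Ccna2, Birc5 and Hmgb2), and 2 had a lower one (Ccnb1 and Ube2c). Of the 13 S-phase members 1 was higher (Pcna) and 2 were lower (Tyms and Ccne1). Over all tested genes 6.38% had a higher and 10.4% a lower ratio without overlap. These shares are no matched baseline, because most tested genes did not move with Mki67 between libraries as the members did. The CPM of Ccnb1 per CPM of Mki67 was 0.181, 0.114 and 0.0308 in propyzamide, against 0.319 and 0.260 in vehicle. That of Ube2c was 0.366, 0.0571 and 0.246 in propyzamide, against 0.588 and 0.429 in vehicle.

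Other cell types of the tissue were summed as marker lists. Of 12 smooth-muscle markers tested all had positive fold changes and 0 passed the edgeR threshold, with 6539, 10374 and 11137 CPM in propyzamide, against 598 and 4001 CPM in vehicle. Their median log2 fold change was 2.06, and the smallest edgeR adjusted p was 0.0504. Under an unadjusted edgeR p of 0.05 were 11 of the 12, against 18.2% of all tested genes. The 18 leukocyte markers summed to 144, 179 and 253 CPM in propyzamide, against 229 and 424 CPM in vehicle, with overlap. Of the 5 tested 3 were positive and 2 negative, with a median log2 fold change of 0.067, and 0 passed the edgeR threshold (1 under an unadjusted p of 0.05). The lymphocyte genes Cd3e, Cd3g and Cd79a, not tested, had 0 counts in all propyzamide libraries, against 6 and 2, 5 and 4, and 13 and 2 counts in vehicle. The 8 fibroblast markers summed to 368, 951 and 1249 CPM in propyzamide, against 459 and 361 CPM in vehicle. The 7 adipocyte markers summed to 48.9, 104 and 307 CPM in propyzamide, against 14.9 and 22.1 CPM in vehicle, and 2 of the 3 tested rose. Lep of the same list, not tested, had 0 counts in all propyzamide libraries but was counted in vehicle. The 6 endothelial markers summed to 29.6, 16.9 and 42.0 CPM in propyzamide, against 41.4 and 31.2 CPM in vehicle, with overlap.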
